A study of Mus musculus with 15 samples.

Results

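The genes of the lysosome and of autophagy were followed in mouse epiblast-like cells (EpiLCs, an in vitro counterpart of the early post-implantation epiblast) during induction of ERK signalling and after a MEK inhibitor. The set has 42 genes, found by matching listed names to the Ensembl mouse gene identifiers of the 52636 rows of the count table. They are 8 genes of the MiT/TFE transcription factors, the folliculin complex and the Rag GTPases, 10 lysosomal hydrolases, 7 lysosomal membrane proteins, cofactors and lipid transporters, 8 subunits of the V-ATPase and 9 autophagy genes. The match used gene names only and no measured value, but the genes were chosen with earlier results of these data known. Counts sufficed to test 41 of them, and Mitf, with 1 to 11 counts per library, was not tested.

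Lysosomes are acidic organelles in which hydrolases degrade proteins, lipids and sugars, and the V-ATPase pumps the protons that keep them acidic. Autophagy delivers cytoplasmic material to them in double-membraned autophagosomes, and starts with the ULK1 kinase complex. MiT/TFE factors (TFEB, TFE3, MITF) bind CLEAR elements, extended E-boxes in promoters of lysosomal genes, and their entry into the nucleus is held back by mTORC1, through the Rag GTPases and folliculin, and by ERK. In pluripotent cells, TFE3 and folliculin are known for their part in the exit from the naive state.

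Embryonic stem cells of the line CRAFR26, which carries a c-RAF kinase construct that 4-hydroxytamoxifen (4OHT) switches on, were passed through a state labelled RSC and then through 48 h of EpiLC culture with bFGF (12 ng/ml), Activin A (20 ng/ml) and XAV939 (1 µM). Every group had 2 h of the FGF receptor inhibitor PD17 (PD173074, 250 nM). In all, 3 libraries had no 4OHT (0h), 4 each had 250 nM of it for 2 h (2h) or 4 h (4h), and 4 had a MEK inhibitor, which the labels do not name, for 2 h after 4 h of 4OHT (rev). Libraries came from clone 4 (7) and clone 8 (8), and the 0h group had 1 of clone 4, since the submitters discarded 1 sample in quality control. Time in culture and treatment cannot be told apart, because no group had the later hours without 4OHT or without the inhibitor. The labels do not say whether the libraries of a clone came from separate cultures, so p-values measure the spread between these samples.

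Total counts were 8667880 to 13004556 at 0h, 2h and rev and 1552022 to 6658950 at 4h, and mitochondrial genes took 2.67% to 6.98% and 7.21% to 12.4% of them. All 8 epiblast markers had counts in every library, with a summed level of 837 to 953 CPM (counts relative to the TMM-scaled library size) at 4h and 1024 to 1550 elsewhere. Its members differed: Dnmt3b had 398 to 440 CPM at 4h and 661 to 1061 elsewhere, while Sox2 had 81.0 to 141 at 4h and 20.8 to 62.8 elsewhere, and Nanog (up to 88.3) and Otx2 (up to 35.8) also reached their highest values at 4h. The 4 neuroectoderm markers summed to 37.9 to 50.8 CPM at 4h and 3.46 to 11.3 elsewhere, with Neurog2 at 0 in 9 of 15 libraries, and the 5 naive markers summed to 37.0 to 136 and 15.7 to 27.3. The part of this shift, and of depth, in the 4h results was not tested. In bulk RNA, fewer cells of a type and less RNA per cell cannot be told apart. Of 6 ERK target genes that check the induction, 4 rose in 2h vs 0h, Etv4 fell (-0.47, adjusted p = 0.0292) and Etv5 was not called (-0.07). Spry4 and Dusp6, among those that rose, had 0.727 to 0.972 and 2.27 to 4.24 CPM at 0h, and 60.9 to 124 and 121 to 181 CPM at 2h. Of the same 6 genes, 5 were higher in 4h vs 0h, while 1 rose and 3 fell in 4h vs 2h. In rev vs 4h 5 fell, and in rev vs 0h 4 were still higher and 1 was lower.

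Promoters of the genes were searched for the E-box CACGTG and for the 8-letter core of the CLEAR element, TCACGTGA, in windows from 250 bases before to 50 after the RefSeq start (GRCm38.p6). Each motif equals its own reverse complement, so a match lies on both strands, and the E-box lies inside the core. A window was available for 35 of the 42 genes, and the genes without one are Ctsb, Atp6v1h, Becn1, Atp6v1c1, Atp6v1b2, Npc1 and Rb1cc1. The E-box was in the windows of 12 genes (34.3%), and in 8.09% of the 27025 genes with a window. The core was in those of 6 genes (17.1%, against 1.12%), Ctsa, Ctsd, Gla, Mcoln1, Atp6v0d1 and Atp6v1a. Their matches are shown because they are the only windows of the set with the full core, with the core in capitals, 5′ to 3′ on the strand of the gene.
Ctsa, which encodes protective protein/cathepsin A (chr2:164833734-164833772, plus strand, at the second of its RefSeq starts): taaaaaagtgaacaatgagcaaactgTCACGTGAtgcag
Ctsd, which encodes the aspartic protease cathepsin D (chr7:142387893-142387952, minus strand): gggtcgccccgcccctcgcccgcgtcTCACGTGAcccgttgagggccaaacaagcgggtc
Gla, which encodes alpha-galactosidase A (chrX:134601167-134601255, minus strand): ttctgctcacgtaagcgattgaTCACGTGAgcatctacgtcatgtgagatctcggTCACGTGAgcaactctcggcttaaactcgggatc
Mcoln1, which encodes the lysosomal cation channel mucolipin 1 (chr8:3500447-3500506, plus strand): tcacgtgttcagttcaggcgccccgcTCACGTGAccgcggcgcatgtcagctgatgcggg
Atp6v0d1, which encodes subunit d1 of the membrane sector of the V-ATPase (chr8:105566061-105566094, minus strand): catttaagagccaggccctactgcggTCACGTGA
Atp6v1a, which encodes the catalytic subunit A of the V-ATPase (chr16:44139358-44139417, minus strand): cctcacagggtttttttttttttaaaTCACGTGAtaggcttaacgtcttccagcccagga
The core began 4 bases before the start in Atp6v0d1 and 13 in Ctsa, and 46, 99 and 132 bases before it in Mcoln1, Ctsd and Atp6v1a. In Gla it lay at 228 and at 195 bases before the start. Ctsa had a further match past the start. Lamp1 had 4 E-boxes and none with the full core. These matches are letters in a window and no measure of binding.

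Before induction, levels were compared per exon length (FPKM, the CPM per kilobase of exon) and ran from Lamp1 down to Mitf. Lamp1, an abundant glycoprotein of the lysosomal membrane, was highest with 37.0 ± 1.34 FPKM (SD, n = 3), above 97.0% of tested genes. The autophagy receptor Sqstm1 (p62) followed with 23.0 ± 1.21 FPKM and Psap, the precursor of the saposins that assist lipid hydrolases, with 22.1 ± 0.511, and these neighbours overlapped within their SD. Atp6v1b2 (15.8 ± 0.496), Atp6v0d1 (14.3 ± 0.555), Ctsd (12.5 ± 1.73), Ctsz (10.5 ± 0.801) and Rragd (10.04 ± 0.614) came next. Of the MiT/TFE factors, Tfe3 had 5.35 ± 0.260 FPKM, Tfeb 0.209 ± 0.0600 and Mitf 0.0831 ± 0.0335. Tfe3 lay in the upper part of the set and Tfeb and Mitf at its end, below Wipi1 (0.504 ± 0.164).

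**Figure D1:**
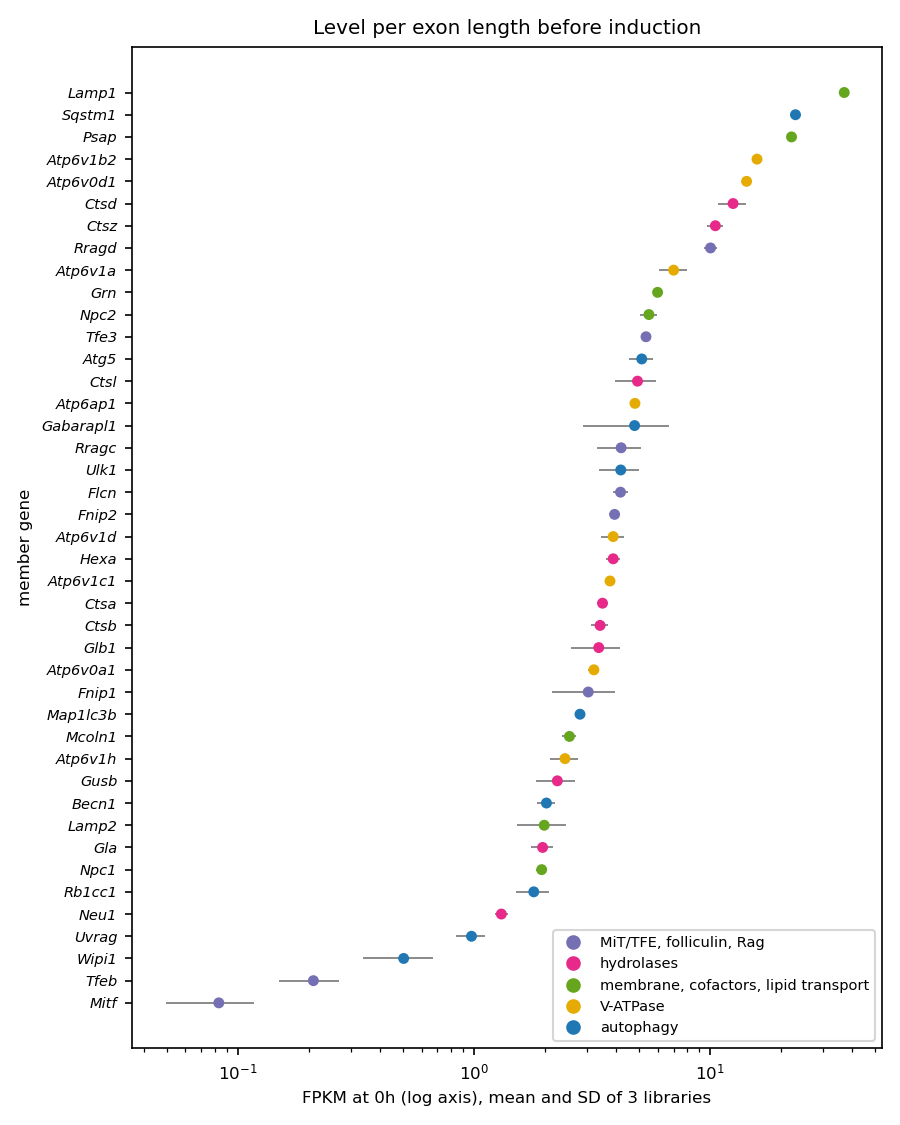
Level per exon length of the 42 genes at 0h, on a log axis of FPKM, with points for the mean and lines for the SD of 3 libraries, coloured by role. Lamp1 stands highest at 37.0 FPKM, and Tfeb (0.209) and Mitf (0.0831) lie below all others.

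Few of these genes were called after the first 2 h of induction, as among all tested genes. Rb1cc1 and Sqstm1 rose and none fell in 2h vs 0h, 2 of 41 tested, where 6.45% of all 13451 tested genes were called (3.98% higher, 2.46% lower). Calls are genes with an adjusted p under 0.05, by Benjamini-Hochberg over all tested genes. Leaving out 0h clone4_1 left none of the calls, and leaving out 0h clone8_1, 0h clone8_2, 2h clone4_1, 2h clone8_1 or 2h clone8_2 left 1. The median log2 fold change was 0.05 over the set and 0.01 over all tested genes. In simulated data this comparison found 31 of 200 genes at a log2 change of 0.5, so changes of that size could be missed. The data had 867 called genes, more than the 200 changed in the simulation, so that share can be too low for the data.

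More calls came between 2 h and 4 h, in the set and over all tested genes. Calls in 4h vs 2h numbered 19 of 41, with 7 genes higher and 12 lower, where 38.9% of all tested genes were called (19.7% higher, 19.2% lower). Calls in 4h vs 0h numbered 14, with 6 genes higher and 8 lower, against 39.4% of all (20.5% higher, 18.9% lower), and 9 without 0h clone8_1. Calls in rev vs 4h numbered 15, with 10 genes higher and 5 lower, against 30.8% of all (15.1% higher, 15.6% lower). In rev vs 0h, 5 rose and none fell, against 11.2% of all (6.49% higher, 4.66% lower). The count in rev vs 0h was 1 without 0h clone4_1, 2 without 0h clone8_1 and 3 without rev clone4_2 or rev clone8_2. No test compared these shares with those of all genes. All libraries of 1 group lay above or below all of the other in 26.1% of all tested genes for 4h vs 2h. This share was 22.8% for rev vs 4h, 36.3% for 4h vs 0h, 19.1% for 2h vs 0h and 25.9% for rev vs 0h. In the set, 5 genes lay above and 10 below in 4h vs 2h, and 10 above and 5 below in rev vs 4h. Groups without overlap, given below, are read against these shares. Without the shallowest 4h libraries (clone4_1 and clone8_2 together), 10 genes were called in 4h vs 0h, 16 in 4h vs 2h and 12 in rev vs 4h. Calls lost in this way are named below only for the MiT/TFE, folliculin and Rag genes and the called genes with the 8 largest changes. For the other called genes they are not given, so silence there does not mean that a call held.

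Directions are read relative to the median tested gene, which TMM scaling placed near 0. Scaling by total counts instead moved that median on the log2 scale by -0.73 for 4h vs 0h, by -0.57 when 4h was set against 2h, and by 0.45 for rev vs 4h. Under it 10 of 14 called genes kept their sign in 4h vs 0h, 15 of 19 in 4h vs 2h and 15 of 15 in rev vs 4h. Tfe3, Npc1, Mcoln1 and Rb1cc1 were negative in 4h vs 0h, and Tfe3, Ctsa, Npc1 and Grn in 4h vs 2h. Relative to the shifted median, all of these called genes kept their sign. That was nearly fixed in advance, because a change of scaling moves all genes of a comparison by nearly the same amount. Every rise at 4h given below is therefore a rise against the bulk of tested genes.

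By role, most calls among the V-ATPase subunits and the autophagy genes were lower in 4h vs 2h and higher in rev vs 4h. Over all tested genes, 19.7% were called higher and 19.2% lower in 4h vs 2h, and 15.1% and 15.6% in rev vs 4h. The counts by role, each of a few genes, were not tested against these shares. Of the V-ATPase genes, 0 rose and 4 of 8 fell in 4h vs 2h and 4 rose and 0 fell in rev vs 4h. Of the autophagy genes, 1 rose and 5 of 9 fell in 4h vs 2h, and 3 rose and 1 fell in rev vs 4h. Membrane proteins and cofactors had 3 higher and 1 lower of 7, and then 0 higher and 2 lower. Hydrolases had 1 higher and 1 lower of 10, and then 1 higher and 2 lower. The MiT/TFE, folliculin and Rag group had 2 higher and 1 lower of 7 tested, and then 2 higher. Both comparisons use the 4h libraries, so an opposite sign in the second is not independent of the first. By the calls, 9 genes were lower in 4h vs 2h and higher in rev vs 4h (Fnip1, Ctsl, Atp6v0a1, Atp6v1a, Atp6v1b2, Atp6v1h, Sqstm1, Gabarapl1, Atg5). Another 4 were higher and then lower (Ctsa, Mcoln1, Grn, Ulk1).

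**Figure D2:**
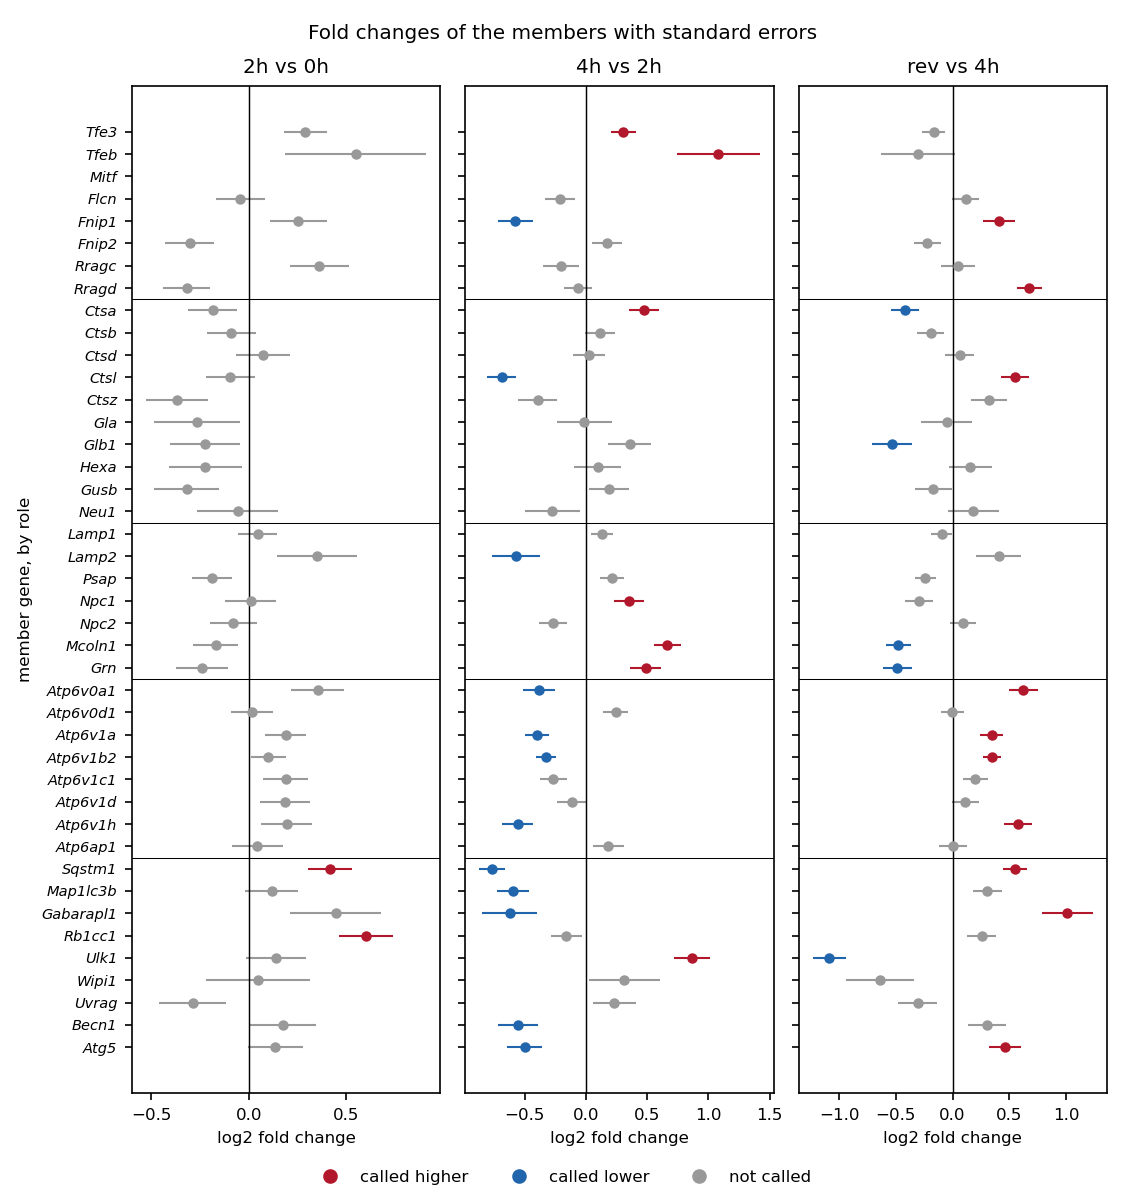
Log2 fold change (horizontal axes, with standard errors) of the 42 genes, ordered by role, in 3 comparisons, relative to the median tested gene, and Mitf has no point because it was not tested. Called genes are red (higher) or blue (lower): in 4h vs 2h the V-ATPase block has 4 blue points and no red one, and in rev vs 4h it has 4 red and no blue one.

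**Figure D3:**
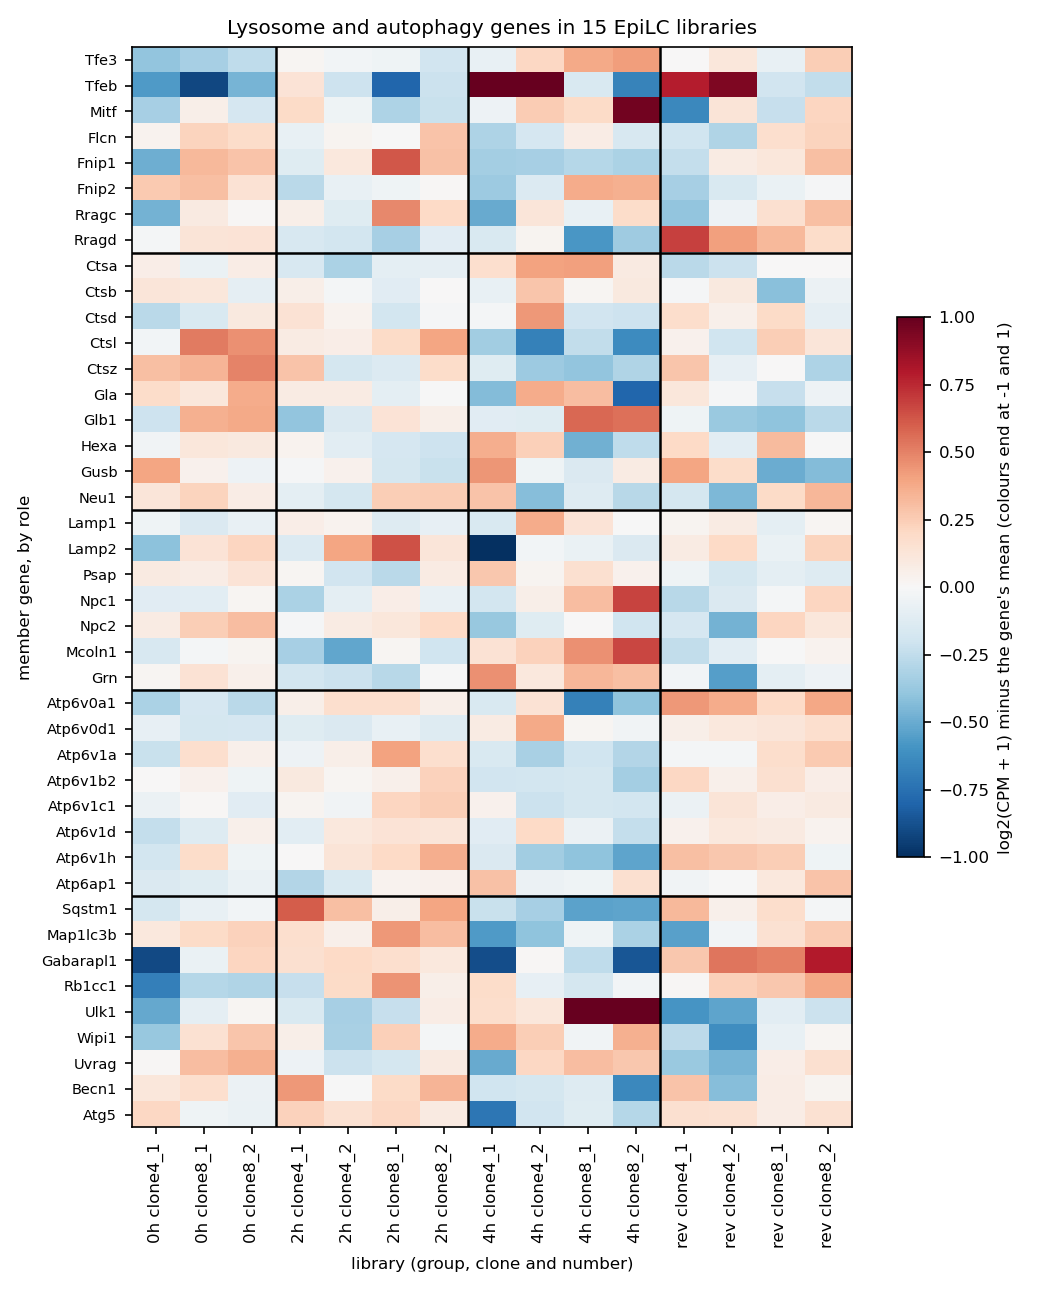
Log2(CPM + 1) of each gene in each of the 15 libraries minus the mean of that gene, with genes by role in rows and libraries by group in columns (colours end at -1 and 1). The highest values of Tfeb are in the 4h libraries of clone 4 and those of Ulk1 in the 4h libraries of clone 8.

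Among the MiT/TFE factors, Tfe3 and Tfeb were higher at 4h than at 0h. For Tfe3 the rise was 0.48 (SE 0.16) in clone 4 and 0.70 (SE 0.13) in clone 8. Tfe3, the most expressed factor, had 47.3, 49.3 and 52.1 CPM at 0h (here and below in the order clone4_1, clone8_1, clone8_2). It had 63.2, 61.1, 60.4 and 54.6 CPM at 2h, 59.3, 72.1, 81.5 and 83.7 at 4h, then 62.6, 67.4, 59.4 and 74.2 in rev (in the order clone4_1, clone4_2, clone8_1, clone8_2). All libraries with 4OHT lay above those without it, and the highest were the clone 8 libraries at 4h. Over both clones 4h exceeded 0h by 0.59 (log2, SE 0.11, adjusted p = 0.000261), and rev exceeded 0h by 0.43 (SE 0.11, adjusted p = 0.0154). In rev vs 4h the value was -0.17 (adjusted p = 0.227), so no return was detected. The step of 0.31 in 4h vs 2h (adjusted p = 0.0219) was lost without 2h clone8_2 (adjusted p = 0.0846), 4h clone8_1 or 4h clone8_2. That of rev vs 0h was lost without 0h clone4_1 (adjusted p = 0.0945), 0h clone8_1 or rev clone8_2. By clone, 4h vs 2h gave 0.08 (SE 0.13) in clone 4 and 0.52 (SE 0.13) in clone 8. This difference was not called (adjusted p = 0.271).

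Tfeb was scarce and highest in clone 4. It had 1.30, 0.802 and 1.45 CPM at 0h, 2.72, 1.95, 0.959 and 1.93 at 2h, 6.11, 8.64, 2.05 and 1.13 at 4h, then 4.83, 5.47, 1.97 and 1.87 in rev. The clone 4 libraries at 4h and rev stood apart from all others, while a clone 8 library at 4h lay within the range of 0h. The fold change was 1.63 in 4h vs 0h (SE 0.39, adjusted p = 0.00231), 1.08 in 4h vs 2h (SE 0.34, adjusted p = 0.0148) and 1.32 for rev against 0h (SE 0.36, adjusted p = 0.0219). By clone, 4h vs 0h gave 2.54 (SE 0.49) in clone 4 and 0.62 (SE 0.48) in clone 8. The difference between clones in 4h vs 2h, -1.54, was not called (adjusted p = 0.205). The call of 4h vs 0h was lost without 0h clone4_1 (1.16, adjusted p = 0.0581) and that of 4h vs 2h without 2h clone4_2 or 4h clone4_2 (0.68, adjusted p = 0.176 without the latter). In rev vs 0h it was lost without 0h clone4_1 (0.87, adjusted p = 0.299), 0h clone8_1 or rev clone4_2. Mitf had 0.0701 to 2.26 CPM, with its highest value in 4h clone8_2.

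The Rag GTPase gene Rragd, a subunit of the heterodimer that recruits mTORC1 to lysosomes, was highest after the MEK inhibitor. It had 48.3, 53.7 and 53.8 CPM at 0h, 43.6, 42.9, 38.7 and 45.2 at 2h, 44.0, 49.9, 32.3 and 38.1 at 4h, then 79.2, 65.5, 61.6 and 55.8 in rev. Every rev library lay above every other library. The rise in rev vs 4h was 0.68 (SE 0.11, adjusted p = 9.69e-05), and in rev vs 0h the value was 0.29 (adjusted p = 0.122). The fall of -0.38 in 4h vs 0h (adjusted p = 0.0159) was lost without 0h clone8_1 or 4h clone8_1 (-0.30, adjusted p = 0.0674 without the latter). It was also lost without the shallowest 4h libraries (adjusted p = 0.0515). By clone, Rragd changed in 4h vs 0h by -0.04 (SE 0.17) in clone 4 and -0.61 (SE 0.14) in clone 8, a difference that was not tested. Its paralogue Rragc had 10.4 to 21.5 CPM and was called in no group comparison.

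Fnip1, a partner of folliculin in the complex that acts on the Rag GTPases, fell between 2 h and 4 h. It had 18.7, 22.0, 31.9 and 25.2 CPM at 2h and 15.9, 16.0, 16.6 and 16.2 at 4h, with no overlap. The fall was -0.57 (SE 0.14, adjusted p = 0.0026). In rev it had 17.2, 21.7, 22.1 and 25.3 CPM, 0.41 above 4h (adjusted p = 0.0318). That call was lost without 4h clone8_1, 4h clone8_2 (adjusted p = 0.108), rev clone4_2 or rev clone8_2, and without the shallowest 4h libraries (adjusted p = 0.107). Flcn (folliculin, 12.8 to 19.9 CPM) and Fnip2 (21.4 to 36.2 CPM) were called in no group comparison.

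**Figure D4:**
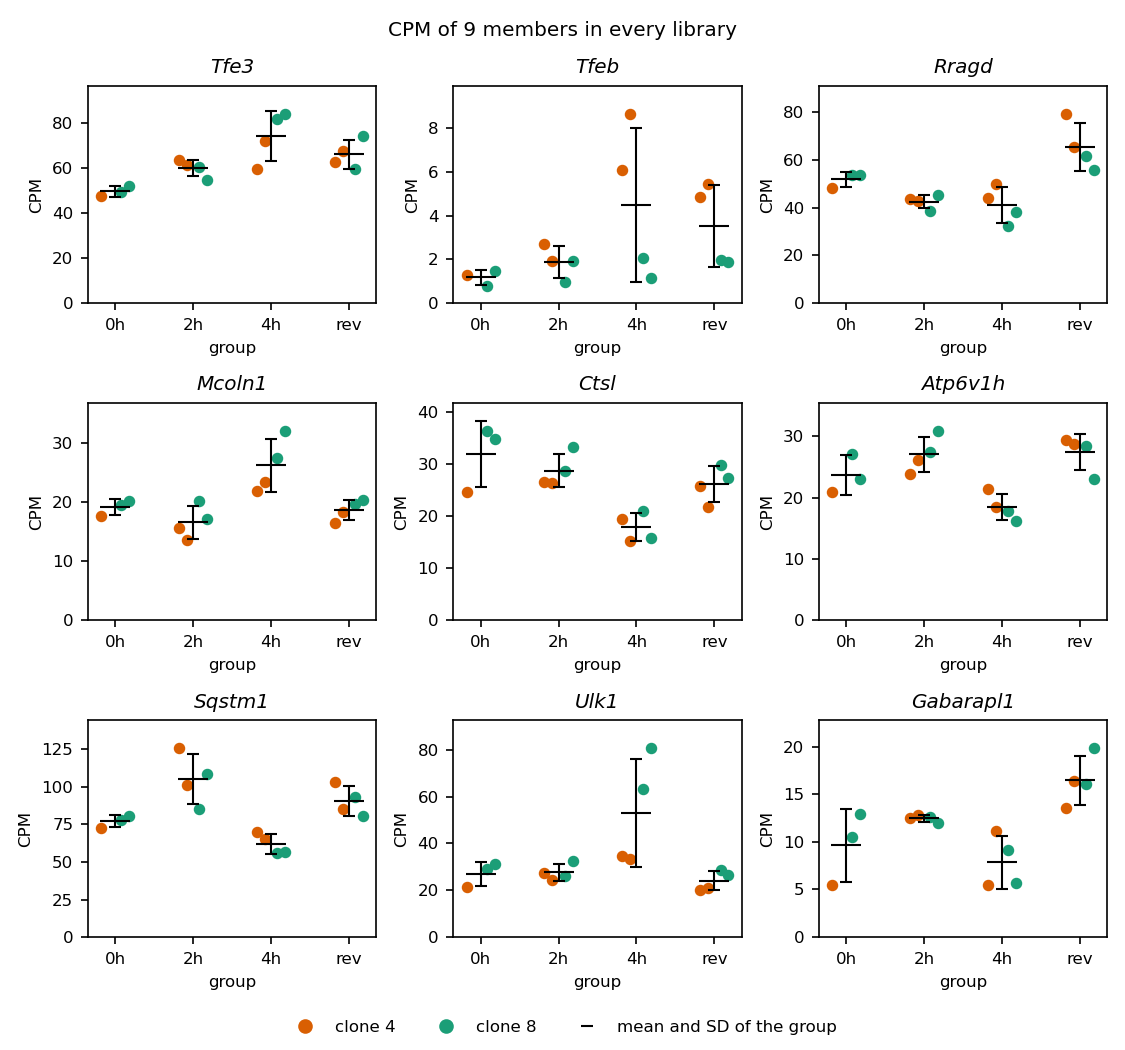
CPM of 9 genes in every library (points, orange for clone 4 and green for clone 8), with the mean and SD of each group in black, on linear axes from 0. Sqstm1, Ctsl and Atp6v1h are lowest at 4h, Mcoln1 and Ulk1 highest at 4h, and Rragd and Gabarapl1 highest in rev.

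Of the hydrolases, Ctsl and Ctsz fell from 0h to 4h and none rose. Ctsl, the cysteine protease cathepsin L, had 24.6, 36.4 and 34.9 CPM at 0h, 26.7, 26.4, 28.8 and 33.4 at 2h, 19.5, 15.3, 20.9 and 15.8 at 4h, then 25.9, 21.8, 29.9 and 27.4 in rev. The 4h libraries were below all others. The changes were -0.78 in 4h vs 0h (SE 0.13, adjusted p = 7.58e-05), -0.69 in 4h vs 2h (adjusted p = 0.000132) and 0.55 in rev vs 4h (adjusted p = 0.00154). Ctsl shares 395 exon bases with a gene on its own strand and 1742 with one on the other strand, of 6489, so part of its counts could belong to those. Ctsz, a carboxypeptidase of the same family, had 14.3, 14.7 and 16.5 CPM at 0h and 10.4, 8.64, 8.42 and 9.05 at 4h, a fall of -0.76 (SE 0.17, adjusted p = 0.00122). Its values in 4h vs 2h (-0.39, adjusted p = 0.0554) and in rev vs 4h (0.32, adjusted p = 0.137) did not pass.

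Ctsa, which protects and activates other lysosomal glycosidases, was higher at 4h than at 2h. It had 14.4, 12.8, 15.1 and 15.2 CPM at 2h, 18.3, 21.7, 21.9 and 17.3 at 4h, then 13.2, 13.8, 16.2 and 16.3 in rev. The 4h libraries were above all of 2h and rev, by 0.47 (SE 0.12, adjusted p = 0.0042), and fell back by 0.42 (adjusted p = 0.0116). Glb1, the acid beta-galactosidase, had 7.94, 7.90, 13.4 and 13.2 CPM at 4h, then 8.41, 6.50, 6.34 and 7.06 in rev, a fall of -0.54 (adjusted p = 0.0265). The fall was -0.99 (SE 0.21) in clone 8 and -0.08 (SE 0.21) in clone 4, a difference that was not called (adjusted p = 0.127). That fall was lost without 4h clone8_1, 4h clone8_2, rev clone4_2, rev clone8_1 (adjusted p = 0.102) or rev clone8_2, and without the shallowest 4h libraries (adjusted p = 0.0637). Ctsb, Ctsd, Gla, Hexa, Gusb and Neu1 were called in no group comparison, with means over all libraries from 4.41 CPM for Neu1 to 31.8 for Ctsd.

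Of the membrane proteins and cofactors, Mcoln1, Grn and Npc1 rose in 4h vs 2h. Mcoln1, the calcium channel of the lysosome and a gene with the CLEAR core, had 17.7, 19.6 and 20.2 CPM at 0h, 15.5, 13.5, 20.1 and 17.1 at 2h, 22.0, 23.4, 27.5 and 32.0 at 4h, then 16.5, 18.4, 19.7 and 20.3 in rev. Each 4h library exceeded each other library. The rise was 0.66 in 4h vs 2h (SE 0.11, adjusted p = 7.8e-05) and 0.49 in 4h vs 0h (adjusted p = 0.00267), and the fall in rev vs 4h was -0.48 (adjusted p = 0.00241). Of the other genes with the core, Ctsa rose in 4h vs 2h, Atp6v1a fell, and Ctsd (0.03), Gla (-0.01) and Atp6v0d1 (0.24) were not called.

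Grn encodes progranulin, a precursor of lysosomal granulins. It had 17.3, 16.8, 16.0 and 19.6 CPM at 2h, 27.5, 21.2, 25.0 and 24.5 at 4h, then 19.3, 13.1, 18.3 and 19.0 in rev. The rise of 0.49 in 4h vs 2h (adjusted p = 0.00445) and the fall of -0.49 in rev vs 4h (adjusted p = 0.0059) both separated the 4h libraries from all of the other group. Npc1, the cholesterol exporter of the lysosomal membrane, had 20.2, 23.9, 28.7 and 37.3 CPM at 4h and 21.2 to 23.3 at 0h, a rise of 0.36 (adjusted p = 0.0374). The call was lost without 0h clone8_1, 0h clone8_2, 4h clone4_2 or 4h clone8_2, and without the last of these the value was 0.21 (adjusted p = 0.221). In 4h vs 2h the rise of 0.35 (adjusted p = 0.0297) was lost without 2h clone4_1, 2h clone8_2 or 4h clone8_2 (0.22, adjusted p = 0.158). By clone, Npc1 rose in 4h vs 0h by 0.07 (SE 0.20) in clone 4 and 0.56 (SE 0.16) in clone 8. In 4h vs 2h these values were 0.16 (SE 0.17) and 0.52 (SE 0.16).

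Its soluble partner Npc2 fell in 4h vs 0h, by -0.35 (adjusted p = 0.028), from 27.3 to 32.0 CPM to 19.5 to 25.7, a call lost without 0h clone4_1 (adjusted p = 0.1), 4h clone4_1 or 4h clone8_2. Lamp2, a membrane glycoprotein needed for fusion with autophagosomes, fell in 4h vs 2h by -0.57 (adjusted p = 0.0276). It had 17.1, 25.2, 29.9 and 20.6 CPM at 2h and 7.94, 18.5, 18 and 17.0 at 4h, so the shallowest library (4h clone4_1) was lowest. Without that library the value was no longer called, nor without 2h clone4_2, 2h clone8_1 (adjusted p = 0.0913) or 4h clone8_2. Lamp1 (94.7 to 137 CPM) and Psap (46.7 to 68.4 CPM) were called in no group comparison.

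The V-ATPase subunits had a median log2 fold change of -0.29 in 4h vs 2h and 0.27 in rev vs 4h, against -0.01 and 0.02 over all tested genes. The called falls were in Atp6v1h (-0.56), Atp6v1a (-0.40), Atp6v0a1 (-0.38) and Atp6v1b2 (-0.33), and the same 4 genes were called higher in rev vs 4h, in a comparison that shares the 4h libraries. Atp6v1h, the regulatory subunit H of the catalytic sector, had 23.8, 26.1, 27.4 and 30.8 CPM at 2h, 21.4, 18.5, 17.8 and 16.2 at 4h, then 29.4, 28.8, 28.3 and 23.0 in rev. The 4h libraries were below all of 2h and of rev, by -0.56 (SE 0.13, adjusted p = 0.00137), and the rise in rev vs 4h was 0.58 (adjusted p = 0.00142). Against 0h (20.8, 27.1 and 23.0 CPM) the fall was -0.36 (adjusted p = 0.0378). That call was lost without 0h clone8_1 (-0.26, adjusted p = 0.187), 4h clone8_1 or 4h clone8_2. The value in 4h vs 0h was -0.07 (SE 0.19) in clone 4 and -0.56 (SE 0.16) in clone 8, a difference that was not tested.

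Atp6v1a, the catalytic subunit, had 40.6, 44.0, 56.2 and 47.5 CPM at 2h, 37.9, 33.6, 36.7 and 34.3 at 4h, then 41.5, 41.5, 47.7 and 50.6 in rev. Its fall (adjusted p = 0.00284) and its rise of 0.34 in rev (adjusted p = 0.0103) separated all libraries of the groups. Groups were apart in this way for 26.1% of all tested genes in 4h vs 2h and 22.8% in rev vs 4h. Atp6v1b2, the brain-type subunit B2 that most tissues use, had 84.7 to 98.4 CPM at 2h, 66 to 73.8 at 4h, then 86.6 to 96.8 in rev, with adjusted p = 0.00352 for the fall and 0.00285 for the rise of 0.35. Its fall of -0.23 in 4h vs 0h (adjusted p = 0.0487) was lost without 0h clone4_1, 0h clone8_1 (adjusted p = 0.129), 4h clone4_1, 4h clone8_1 or 4h clone8_2.

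Atp6v0a1, subunit a1 of the membrane sector, had its highest values in rev. It had 20.1, 22.4 and 20.8 CPM at 0h, 26.4, 28.5, 28.6 and 26.4 at 2h, 22.6, 28.1, 15.5 and 18.8 at 4h, then 34.6, 33.0, 29.2 and 33.3 in rev. Every rev library was above every other library, and at 4h the clone 8 libraries were the lowest of all. The rise was 0.62 in rev vs 4h (SE 0.13, adjusted p = 0.000875) and 0.59 in rev vs 0h (adjusted p = 0.00699), and the latter was lost without 0h clone4_1 (0.48, adjusted p = 0.104). The fall of -0.38 in 4h vs 2h (adjusted p = 0.0224) was lost without 2h clone8_1, 4h clone8_1 (-0.26, adjusted p = 0.115) or 4h clone8_2. By clone it was -0.68 (SE 0.15) in clone 8 and -0.10 (SE 0.15) in clone 4, a difference that was not called (adjusted p = 0.19). Atp6v0d1, Atp6v1c1, Atp6v1d and the accessory subunit Atp6ap1 were called in no group comparison, with 4h vs 2h values of 0.24, -0.26, -0.11 and 0.18.

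Of the autophagy genes, Sqstm1 and Rb1cc1 rose by 2 h, and Ulk1 had the largest change in 4h vs 2h. Sqstm1, the receptor that links ubiquitinated cargo to the autophagosome, had 72.7, 78 and 80.7 CPM at 0h, 126, 101, 85.6 and 108 at 2h, 70.3, 65.2, 56.2 and 56.5 at 4h, then 103, 85.3, 93.0 and 80.8 in rev. Libraries at 2h lay above those of 0h, and those at 4h below every other library. The changes were 0.42 in 2h vs 0h (SE 0.11, adjusted p = 0.0276), -0.76 in 4h vs 2h (SE 0.10, adjusted p = 6.92e-06), -0.35 in 4h vs 0h (adjusted p = 0.0182) and 0.55 in rev vs 4h (adjusted p = 0.000385). The call at 2h was lost without 0h clone4_1 (0.30, adjusted p = 0.28), 0h clone8_1, 0h clone8_2, 2h clone4_1 or 2h clone8_2, and that of 4h vs 0h without 0h clone8_1 (adjusted p = 0.0593). The fall in 4h vs 0h was -0.10 (SE 0.17) in clone 4 and -0.49 (SE 0.14) in clone 8, a difference that was not tested. Sqstm1 shares 580 of its 3356 exon bases with Mrnip on the other strand.

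Ulk1, the kinase that starts autophagy, was highest at 4h. It had 21.3, 28.9 and 31.1 CPM at 0h, 27.6, 24.2, 26.2 and 32.5 at 2h, 34.8, 33.3, 63.3 and 80.7 at 4h, then 20.1, 21.1, 28.5 and 26.4 in rev. Each 4h library exceeded every library of the other groups, and the clone 8 libraries far more than those of clone 4. The rise was 0.87 in 4h vs 2h (SE 0.14, adjusted p = 6.91e-05) and 1.01 in 4h vs 0h (adjusted p = 3.66e-05), the fall in rev vs 4h -1.09 (SE 0.14, adjusted p = 7.18e-06), and the value in rev vs 0h -0.08 (adjusted p = 0.769).

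Rb1cc1 (FIP200), the scaffold of the ULK1 complex, rose by 2 h and was above 0h in each later group. It had 21.6, 28.9 and 28.5 CPM at 0h, 30.1, 40.6, 48.8 and 36.8 at 2h, 40.3, 33.3, 31.2 and 34.7 at 4h, then 35.7, 41.9, 42.9 and 46.7 in rev. Every library with 4OHT was above every library of 0h. The rise was 0.60 in 2h vs 0h (SE 0.14, adjusted p = 0.00985), 0.44 in 4h vs 0h (adjusted p = 0.0166) and 0.70 in rev vs 0h (adjusted p = 0.00208). The calls were lost without 0h clone4_1 in 2h vs 0h (0.50, adjusted p = 0.124) and in 4h vs 0h (0.33, adjusted p = 0.138), and in 2h vs 0h also without 2h clone8_1. In 4h vs 0h the call was lost as well without the shallowest 4h libraries (adjusted p = 0.0988). This rise was 0.76 (SE 0.21) in clone 4 and 0.20 (SE 0.17) in clone 8, a difference that was not tested.

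Among the ATG8 family, whose proteins coat the autophagosome membrane, Map1lc3b and Gabarapl1 were lower at 4h than at 2h. Map1lc3b, the gene of LC3B, had 21.0, 19.3, 25.5 and 23.2 CPM at 2h and 12.2, 13.8, 18 and 14.7 at 4h, with no overlap. It fell by 0.59 in 4h vs 2h (adjusted p = 0.0011). Against 0h it fell by 0.48 (adjusted p = 0.0097), a call lost without 0h clone4_1 (adjusted p = 0.0828) and without the shallowest 4h libraries (adjusted p = 0.0735). In rev vs 4h its value was 0.31 (adjusted p = 0.08).

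Gabarapl1 had 5.45, 10.5 and 13.0 CPM at 0h, 12.5, 12.8, 12.6 and 11.9 at 2h, 5.50, 11.1, 9.11 and 5.65 at 4h, then 13.5, 16.4, 16.1 and 19.8 in rev. The rev libraries lay above all others. The rise in rev vs 4h was 1.01 (SE 0.23, adjusted p = 0.00196) and in rev vs 0h 0.84 (adjusted p = 0.0253). The latter was lost without 0h clone4_1 (0.50, adjusted p = 0.256), 0h clone8_1, rev clone4_2 or rev clone8_2. The fall of -0.62 in 4h vs 2h (adjusted p = 0.0348) was lost without 2h clone4_1, 2h clone4_2, 4h clone4_1, 4h clone8_1 or 4h clone8_2 (-0.46, adjusted p = 0.118). Without the shallowest 4h libraries it was -0.30 (adjusted p = 0.353). By clone, Gabarapl1 changed in 4h vs 0h by 0.68 (SE 0.32) in clone 4 and -0.64 (SE 0.26) in clone 8. In 2h vs 0h these values were 1.21 (SE 0.31) and 0.07 (SE 0.24), and in rev vs 0h 1.45 (SE 0.31) and 0.62 (SE 0.24). These differences were not tested, and clone 4 had 1 library at 0h. The smallest count of Gabarapl1 was 9, in 4h clone4_1.

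Atg5, which conjugates ATG8 proteins to lipid together with ATG12 and ATG16L1, had 12.5 to 14 CPM at 2h, 6.72 to 10.7 at 4h, then 12.4 to 13.2 in rev. It fell by 0.50 in 4h vs 2h (adjusted p = 0.00765) and rose by 0.46 in rev vs 4h (adjusted p = 0.0167), the rise lost without 4h clone4_1 (0.35, adjusted p = 0.051). Becn1, a subunit of the lipid kinase complex of autophagy, fell by 0.55 in 4h vs 2h (adjusted p = 0.0112), from 13.4 to 18.6 CPM to 8.29 to 12.3, a call lost without 4h clone8_2 (adjusted p = 0.0531). It shares 3104 of its 7065 exon bases with Cntd1 on the other strand. Wipi1 (1.03 to 3.05 CPM) and Uvrag (4.89 to 9.69 CPM) were called in no group comparison.

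The clones differed in level for 15 of the 41 genes over all groups, 13 higher and 2 lower in clone 8, where 18.5% of all tested genes were called (10.4% higher, 8.11% lower). The largest differences were in Tfeb (-1.14, SE 0.24, adjusted p = 0.00191), Ulk1 (0.54, SE 0.11, adjusted p = 0.00098), Gusb (-0.45, adjusted p = 0.00966) and Rragc (0.40, adjusted p = 0.0104). These 4 calls held in each of the 15 fits that left out 1 library. The others were Fnip1, Glb1, Uvrag, Map1lc3b, Npc1, Mcoln1, Flcn, Ctsl, Npc2, Fnip2 and Atp6v1a, between 0.39 and 0.21. Of these, 6 (Fnip2, Glb1, Uvrag, Ctsl, Npc2 and Atp6v1a) lost their call in 11 or 12 of the 15 fits and Flcn in 9. The count was 7 without rev clone8_2, 8 without 0h clone8_1 or rev clone4_2, and 9 without 0h clone8_2, 2h clone4_1, 2h clone8_2, 4h clone8_1, rev clone4_1 or rev clone8_1.

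A difference between clones in the response was called in 4h vs 2h for 1 of the 41 genes. In simulated data that test found 28 of 200 genes at a log2 change of 1. Genes without a call were therefore not shown to respond alike in both clones. Ulk1 rose in 4h vs 2h by 1.29 (SE 0.15) in clone 8 and by 0.39 (SE 0.15) in clone 4, a difference of 0.90 (SE 0.21, adjusted p = 0.0227), where 3.14% of all tested genes were called in the same test. It was lost without 2h clone4_1, 2h clone8_1, 4h clone4_2 or 4h clone8_2 (0.71, adjusted p = 0.144 without the last). In the difference of rev vs 4h between clones, edgeR called 0 of the 41 genes, against 2.8% of all, and 4 had an unadjusted p under 0.05. For Ulk1 that difference was -0.67 (adjusted p = 0.118). All 19 genes called in 4h vs 2h had the same sign in both clones, and 18 of these 19 in rev vs 4h, which the selection by the pooled test favours. Dusp6, the ERK target, had 81.9 and 86.9 CPM in the clone 4 libraries at 4h and 29.1 and 31.7 in those of clone 8, and its part in these differences was not tested.

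**Figure D5:**
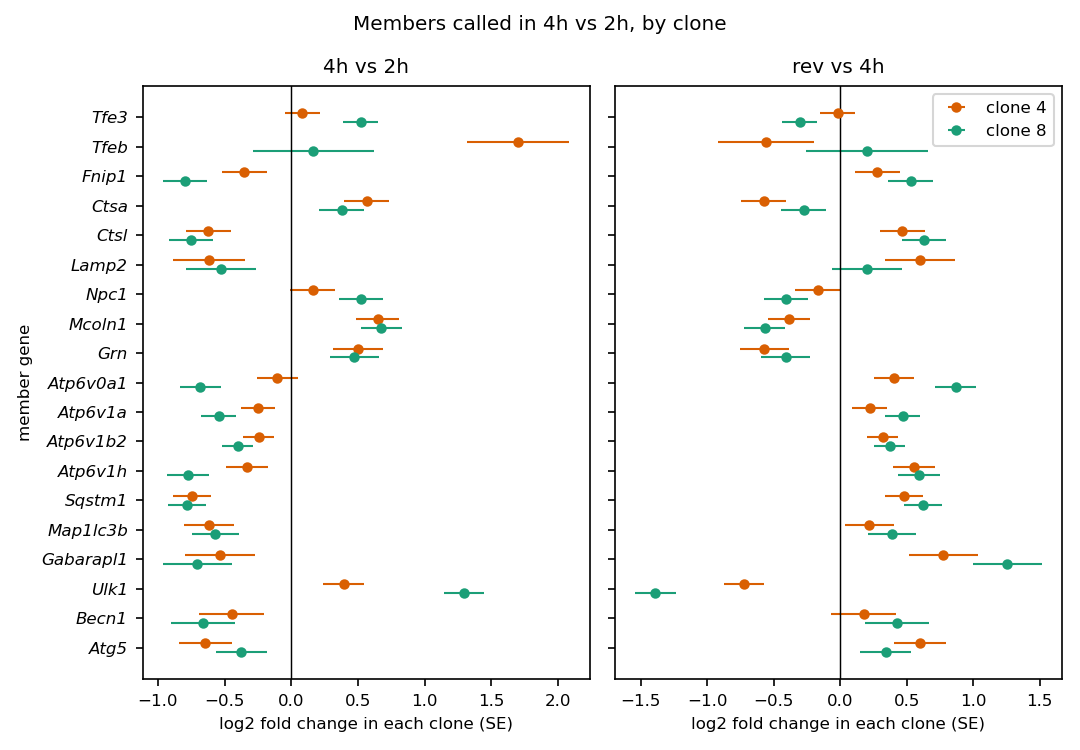
Log2 fold change in each clone (points with SE, orange for clone 4 and green for clone 8) of the 19 genes called in 4h vs 2h, for 4h vs 2h (left) and rev vs 4h (right). The clones lie farthest apart for Tfeb, which rose by 1.70 in clone 4 and 0.17 in clone 8, and for Ulk1, which rose by 0.39 and 1.29.

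The remaining genes of these pathways were read from lists of further hydrolases, membrane proteins, V-ATPase subunits, autophagy genes and mTORC1 components, to be read against the 38.9% of all tested genes called in 4h vs 2h and the 30.8% in rev vs 4h. Of 11 further V-ATPase subunits tested, 0 rose and 5 fell in 4h vs 2h (median -0.25), and 5 rose and 0 fell in rev vs 4h (median 0.20). The largest of these falls were in Atp6v1f (-0.61, adjusted p = 0.00133) and Atp6v0e (-0.55, adjusted p = 0.00446), and in both every 4h library was below every 2h and rev library. Atp6v1f had 13.8 to 19.5 CPM at 2h, 9.05 to 11.8 at 4h, then 14.7 to 17.8 in rev.

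Of 28 further hydrolases tested, 9 rose and 2 fell in 4h vs 2h (median 0.24), and 2 rose and 6 fell in rev vs 4h (median -0.13). Scpep1, a serine carboxypeptidase, rose by 0.57 (adjusted p = 0.000242), from 17.8 to 20.1 CPM at 2h to 23.8 to 32.1 at 4h, and the nuclease gene Dnase2a fell by 0.52 (adjusted p = 0.0158). The further membrane proteins had 3 higher and 2 lower of 14 in 4h vs 2h, and 0 higher and 2 lower in rev vs 4h. Cd63, a tetraspanin, had 11.6 and 18 CPM at 4h in clone 4 and 5.46 and 7.16 in clone 8, a fall of -0.60 overall (adjusted p = 0.0457), and Laptm4b fell by 0.42 (adjusted p = 0.039).

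Of 35 further autophagy genes tested, 3 rose and 6 fell in 4h vs 2h (median 0.02), and 5 rose and 1 fell in rev vs 4h (median -0.06). Atg12 and Atg16l1, the partners of Atg5 in the conjugation machinery, fell by 0.80 (adjusted p = 0.00154) and 0.71 (adjusted p = 4.27e-05). Atg16l1 had 31.5 to 39.9 CPM at 2h, 18.5 to 25.3 at 4h, then 29.9 to 38.7 in rev, with the 4h libraries below all others. Of 22 mTORC1 genes, 3 rose and 5 fell in 4h vs 2h (median -0.14), and 3 rose and 5 fell in rev vs 4h (median 0.07). Rragb, a Rag GTPase, fell by 0.85 (adjusted p = 0.000153), from 12.3 to 16.4 CPM at 2h to 5.50 to 10.6 at 4h, and Akt1s1, the mTORC1 subunit PRAS40, fell by 0.82 (adjusted p = 2.19e-05). Both rose in rev vs 4h by 0.74, with adjusted p of 0.000824 for Rragb and 0.000107 for Akt1s1.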

How the data were processed

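RNA of 15 libraries (rRNA-depleted, 1 µg per sample, NEBNext Ultra II, per the labels' protocols) was analysed from the raw counts per gene that the authors deposited, whole numbers with no normalization. The submitters' processing notes name bcl2fastq 2.19.1, STAR 2.5.3a and mm10; the counting tool, annotation and strand setting are not given in the sources used here. All 15 columns of the table were matched to samples by title. Identifiers were matched to GENCODE M21 (GRCm38), which gave positions and exon lengths, and 18 of the 42 genes share exon bases with another gene (3 on the same strand, 16 on the other), whose reads could be counted with them.

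In R 4.3.3 with edgeR 4.0.16, genes passing filterByExpr (minimum count 10, total 15) were scaled by TMM and fitted with group and clone over all 15 libraries. The quasi-likelihood F test (robust, two-sided) was adjusted by Benjamini-Hochberg over 13451 genes. Clone differences came from a fit that gave every group its own mean within every clone. Fold changes are log2, CPM is on TMM-scaled libraries, and FPKM is CPM per kilobase of union exon length. The floor of 3 counts lay at 0.161 to 1.83 CPM, and floors cover counting error only. In data simulated with 200 changed genes, 4h vs 2h found 134 at a log2 change of 1 and 37 at 0.5. For 2h vs 0h these were 159 and 31, and for rev vs 4h 136 and 29. The clone difference found 28 and 1 for 4h vs 2h, and 14 and 0 for rev vs 4h. The data had more called genes, 867 in 2h vs 0h, 5237 in 4h vs 2h and 4140 in rev vs 4h. The clone differences had 422 in 4h vs 2h and 377 in rev vs 4h. With more changed genes the Benjamini-Hochberg cutoff is less strict, so the simulated counts can understate detection.

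The genes and lists were chosen with earlier results of these data known. Named with values are the MiT/TFE, folliculin and Rag genes, the called genes with the 8 largest changes in each comparison, those called between clones or separated from 0h, and the 2 largest changes of each further list at a mean of at least 10 CPM. Other genes of the set are named with the counts, after their values were seen. Alternatives were total count and RLE scaling, TMM after removing mitochondrial genes and the 20 with most counts, DESeq2 1.42.0, no filter, no clone term, a replicate block, only the groups compared and leaving out each library. The earlier quasi-likelihood form and the removal of the 2 shallowest 4h libraries were chosen after seeing the data.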

Additional observations from a re-analysis of the deposited data

Results flagged for a closer look

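Ulk1 is given for a difference between the clones in the same contrast: its rise in 4h vs 2h was larger in clone 8 than in clone 4 by 0.90 on the log2 scale (adjusted p = 0.0227, edgeR quasi-likelihood test of the interaction), with 63.3 and 80.7 CPM in clone 8 and 34.8 and 33.3 in clone 4 at 4h. Uvrag had 4.89 CPM in 4h clone4_1, the shallowest library, and 8.64 to 9.33 in the other 4h libraries. Atp6v1h had 23.0 CPM in rev clone8_2 and 28.3 to 29.4 in the other rev libraries. These were the 2 groups with a sample far from the others among 69 groups of 4 libraries examined, and chance alone gives about 1 in 20.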

How the results depend on the processing

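Total count scaling changed most. It called 0 genes in 2h vs 0h, 25 in 4h vs 0h (0 higher, against 6 of 14), 0 in rev vs 0h, 1 between clones and 0 in the clone difference of 4h vs 2h. It called 20 in 4h vs 2h (0 higher, against 7 of 19) and 12 in rev vs 4h (11 higher, against 10 of 15). Under it Tfe3 (-0.13), Npc1 (-0.38), Mcoln1 (-0.24) and Rb1cc1 (-0.25) reversed in 4h vs 0h, where the median gene moved by -0.73. In 4h vs 2h, where the median gene moved by -0.57, Tfe3 (-0.22), Ctsa (-0.095), Npc1 (-0.19) and Grn (-0.043) reversed. Without the clone term 1 gene was called in 2h vs 0h, 7 in 4h vs 0h and 3 in rev vs 0h. With no filter the median gene moved by -0.12 in 4h vs 2h and 7 were called between clones, and with only the groups compared 9 in rev vs 0h; the causes were not tested. With each library left out in turn, the counts were 0 to 2 in 2h vs 0h, 9 to 14 in 4h vs 0h, 14 to 20 in 4h vs 2h, 13 to 17 in rev vs 4h, 1 to 7 in rev vs 0h, 7 to 12 between clones and 0 to 1 in the clone difference of 4h vs 2h. RLE scaling kept 49 of 50 calls of named genes and DESeq2 46 of 49.

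Libraries of the same number within a clone deviated together weakly or not at all. Correlations were 0.05 to 0.26 over 3 pairs of groups in clone 4 and -0.19 to 0.04 over 6 in clone 8. So few libraries cannot show whether the numbers pair them. A fit with the replicate block called 2, 12, 19, 17 and 5 genes in the 5 group comparisons and kept all 34 calls of named genes. Depth limits the 4h group, whose floor of 3 counts reached 1.83 CPM, so small changes of Tfeb, Mitf and Wipi1 could not be detected there.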
